A study of Mus musculus with 4 samples.

Results

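The untreated reference cells of this series were measured in the Cy3 channel of all 4 two-colour Agilent arrays, and the cells on the arrays numbered 2 in the labels are compared here with those on the arrays numbered 1. The 4 channels of the comparison are the reference channels of 4 of 4 arrays, 2 per number, and 21078 genes were tested from 41174 probes. Reference 1 stands for the Cy3 cells on the dox array and the dox+TCP array numbered 1, and reference 2 for those on the dox array and the dox+TCP array numbered 2. The names of the arrays come from the other dye: Cy5 held ZHBTc4 cells given 2 µg doxycycline for 48 h, without TCP on the dox arrays and with TCP on the dox+TCP arrays. For the Cy3 cells the labels give ZHBTc4 as the cell type and name no treatment. The labels call the numbers biological replicates 1 and 2, so each reference is 1 labelled replicate seen on 2 arrays, and they do not say whether both arrays of a number carried the same reference RNA. P-values therefore measure the spread between arrays, which may be technical, and not the spread between cultures.

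ZHBTc4 cells are mouse embryonic stem cells whose Oct4 (Pou5f1), a transcription factor, comes from a transgene repressed by doxycycline, and every group here, the reference included, carries that system. The growth protocol describes irradiated embryonic fibroblast feeders followed by 2 passages on gelatin. Embryonic stem cells keep the trophoblast programme, which builds the placenta, silent while Oct4 is present. When Oct4 falls, such cells take on trophoblast character, which the caudal homeobox factor Cdx2 drives and the keratin pair Krt8 and Krt18, the filament proteins of simple epithelia, accompany.

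The sequences upstream of 4 genes that stood at least 2-fold apart between the references are shown first, because 3 of them encode keratins of simple epithelia and the other one, Sct, had the largest difference among the genes that were higher by that size in every pair of arrays. Each is the 250 bases before the RefSeq start in GRCm38.p6, given 5′ to 3′ in the direction of the gene, and capitals mark matches on either strand to GCCNNNGGC, the palindromic motif of AP-2 factors such as Tfap2c. Krt8 lies on the minus strand (chr15:102004343-102004592), Krt18 on the plus strand (chr15:102027966-102028215), Krt7 on the plus strand (chr15:101412153-101412402) and Sct on the minus strand (chr7:141279134-141279383).
Krt8: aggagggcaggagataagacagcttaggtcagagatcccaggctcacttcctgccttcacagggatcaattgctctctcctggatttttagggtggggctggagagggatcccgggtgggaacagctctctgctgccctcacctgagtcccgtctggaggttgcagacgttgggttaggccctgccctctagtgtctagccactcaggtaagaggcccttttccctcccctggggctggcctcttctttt
Krt18: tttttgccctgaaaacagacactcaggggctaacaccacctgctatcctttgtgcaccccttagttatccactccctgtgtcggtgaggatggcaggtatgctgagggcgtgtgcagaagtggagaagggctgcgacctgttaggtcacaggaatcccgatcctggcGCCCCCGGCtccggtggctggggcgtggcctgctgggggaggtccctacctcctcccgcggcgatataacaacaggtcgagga
Krt7: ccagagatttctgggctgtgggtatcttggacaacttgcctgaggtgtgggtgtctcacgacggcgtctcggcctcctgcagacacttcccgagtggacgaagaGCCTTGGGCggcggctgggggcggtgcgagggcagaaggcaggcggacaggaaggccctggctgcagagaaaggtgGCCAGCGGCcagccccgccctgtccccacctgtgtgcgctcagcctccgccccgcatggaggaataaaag
Sct: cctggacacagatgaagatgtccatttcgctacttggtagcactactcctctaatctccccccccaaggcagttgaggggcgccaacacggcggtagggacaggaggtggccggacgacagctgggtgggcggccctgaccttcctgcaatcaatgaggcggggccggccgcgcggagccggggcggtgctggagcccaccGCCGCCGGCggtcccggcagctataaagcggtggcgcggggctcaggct
The motif was found 0 times for Krt8, 1 time for Krt18, 2 times for Krt7 and 1 time for Sct. It occurred in 4509 of 32851 promoters in the RefSeq table (13.7%), in 25 of 113 promoters of 84 genes that were higher in reference 2 (22.1%) and in 8 of 53 promoters of 38 genes that were lower (15.1%). The letters TATAAA stood in 12.4% of all promoters, 11.5% of those of the higher genes and 26.4% of those of the lower genes, and GGAATG, the core motif of TEAD factors, in 12.6%, 14.2% and 3.77%. These shares are descriptions, and no test was made. Several promoters can belong to 1 gene, and the share of all promoters also covers genes that were not measured here.

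Levels are log2 Cy3 intensities after background correction and normalization between arrays, and a difference is reference 2 minus reference 1 on that scale. The median Cy3 signal was 124.1 and 120.0 on the arrays of reference 1 and 108.0 and 140.7 on those of reference 2, against local backgrounds of 22 to 26.5, and 68.8% to 78.1% of spots were well above background. No spot was saturated in Cy3 (0), and saturation was not read in Cy5. Across genes, which are not independent replicates, levels correlated at 0.999 between the arrays of reference 1 and at 0.989 between those of reference 2, and the SD of the differences was 0.103 and 0.341. Only 20 genes differed by 2-fold or more between the arrays of reference 1 (0.0949%), against 227 between those of reference 2 (1.08%). Over 185 probes with 10 spots each, the arrays of reference 1 differed by 2.17 times the error of their spots, so they were not within the noise of the spots, and the arrays of reference 2 by 6.25 times. Both arrays of reference 1 lay on 1 slide, and those of reference 2 on a slide each, with the dox+TCP array of reference 2 scanned on another day than the rest. Slide and number cannot be told apart.

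Several keratin and placental genes were higher in reference 2, and Inhba and several fibroblast markers were lower, with the count for each list given below. By the size rule, which requires each of the 4 differences between an array of reference 2 and an array of reference 1 to be at least 2-fold in the same direction, 117 of 21078 genes were higher (0.555%) and 56 were lower (0.266%). All 4 differences reached 4-fold for 23 of the higher and 4 of the lower genes. limma called 926 genes at an adjusted p of 0.05 (4.39%), 458 higher (2.17%) and 468 lower (2.22%), of which 157 and 100 differed by at least 2-fold. Both rules took 113 of the 117 higher and 54 of the 56 lower genes. The rules read the same 4 values of a gene, so this overlap is no independent support. The counts moved with the scaling and, by size, with the array left out. Median scaling gave 71 higher and 165 lower genes by size and 118 and 582 by limma, and scaling to the 75th percentile 823 and 330 by limma. The median difference of all genes was −0.12 and 0.22 under these settings, against 0.03. Without the dox+TCP array of reference 2 the size rule gave 245 and 114 and limma 6019 and 4891, and without the dox array of reference 2 it gave 275 and 286, and limma 7535 and 6616. Without the dox array of reference 1 limma gave 97 and 42, and without the dox+TCP array of reference 1 it gave 97 and 54. With 1 array left in a group, limma takes the spread from the other group alone and assumes that the lone array varies alike, so these limma counts are no check of the calls. With local backgrounds as read the size rule gave 40 and 10.

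**Figure D1:**
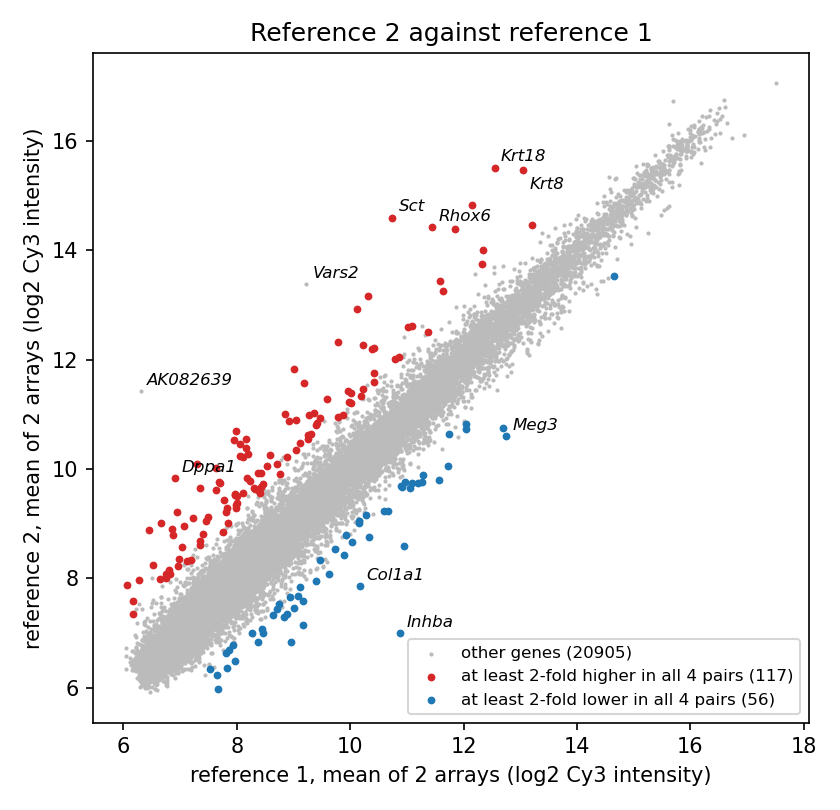
Mean normalized Cy3 level of each of 21078 genes in reference 1 (horizontal axis, log2 intensity, mean of 2 arrays) and reference 2 (vertical axis, same unit). Red points are the 117 genes at least 2-fold higher in all 4 pairs of arrays and blue points the 56 genes at least 2-fold lower; Vars2 and AK082639 lie far off the diagonal but stay grey because their arrays of reference 2 disagree.

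Keratins of simple epithelia were higher in reference 2. Krt8, which encodes the type II keratin of simple epithelia, stood at 13.02 and 13.09 on the dox and dox+TCP arrays of reference 1 and at 15.42 and 15.50 on those of reference 2. Both arrays of reference 2 were higher than both arrays of reference 1, which by itself was common: the arrays did not overlap for 36.2% of all genes in that direction and for 29.3% in the other. The difference was 2.41 ± 0.09 (SE, n = 2 arrays per number; limma adjusted p = 0.00563), or 5.31-fold, and a second probe of the gene gave 3.01. Krt18, its type I partner, stood at 12.35 and 12.75 against 15.33 and 15.70. The groups did not overlap, and the difference was 2.96 ± 0.20 (limma adjusted p = 0.015), or 7.81-fold. In the mm7 coordinates of the files the Krt8 probe (NM_031170) lies on chromosome 15 from 101982940 to 101982999 and the Krt18 probe (NM_010664) on the same chromosome from 102018067 to 102018126.

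Krt7, the type II keratin of ducts and trophoblast, stood at 12.04 and 11.67 against 14.38 and 14.39. Krt19, the smallest type I keratin, stood at 10.19 and 10.06 against 12.94 and 12.92. In both the arrays of reference 2 were the high ones and agreed closely with each other. The differences were 2.54 ± 0.15 (limma adjusted p = 0.0114) and 2.80 ± 0.09 (limma adjusted p = 0.00563). Of 5 measured members of the simple epithelial keratin list, 4 passed the size rule and limma, with a median difference of 2.54 beside 0.03 over all genes tested. The fifth, Krt20 of intestinal epithelium, lay near the low end of the levels, with a difference of −0.14 (limma adjusted p = 0.68).

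**Figure D2:**
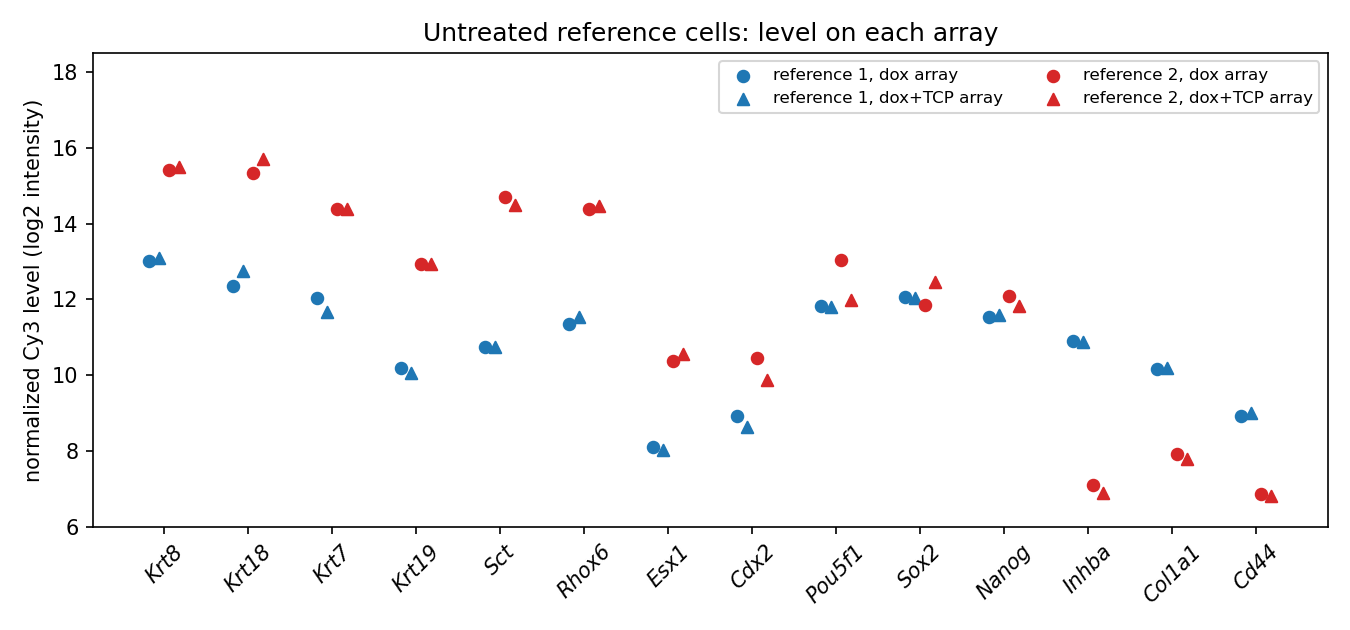
Normalized Cy3 level (log2 intensity) of 14 genes on each of the 4 arrays, blue for reference 1 and red for reference 2, circles for dox arrays and triangles for dox+TCP arrays. The 4 keratins, Sct, Rhox6 and Esx1 are separated by number with red on top (Krt8 at 13.02 and 13.09 against 15.42 and 15.50), Inhba, Col1a1 and Cd44 with blue on top, and the Sox2 points of reference 2 lie on either side of those of reference 1.

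Transcription factors of trophoblast were higher for several members. Cdx2, which specifies trophectoderm, stood at 8.93 and 8.63 against 10.46 and 9.88. The arrays did not overlap, but the smallest of the 4 differences was 0.95, and the mean difference of 1.39 ± 0.23 passed neither the size rule nor limma (adjusted p = 0.0511). Esx1, an X-linked homeobox factor of placenta, stood at 8.11 and 8.02 against 10.36 and 10.55, higher on both arrays of reference 2 by 2.39 ± 0.11 (limma adjusted p = 0.00721). Tfap2c, an AP-2 factor of trophectoderm, stood at 11.05 and 10.99 against 12.46 and 12.74, a difference of 1.58 ± 0.12 (limma adjusted p = 0.0197). Elf5, which maintains trophoblast stem cells, stood at 6.74 and 6.77 against 8.22 and 7.92, higher by 1.32 ± 0.13 (limma adjusted p = 0.0286). All 3 of these factors passed the size rule as higher, which by itself requires the arrays to be separated by number.

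Other regulators of the list did not pass the size rule. Gata3, a zinc finger factor of trophectoderm, was higher by 1.09 ± 0.13 (limma adjusted p = 0.0359) without reaching 2-fold in every pair, and Gata2 stood 1.39 ± 0.23 higher without passing (limma adjusted p = 0.0506). Eomes, a T-box factor of trophoblast stem cells, lay at −0.16 ± 0.08 (limma adjusted p = 0.249). Hand1, a factor of trophoblast giant cells, stood at 9.05 and 9.80 against 10.66 and 9.54, so its arrays overlapped. The list of trophoblast transcription factors has 21 measured members and also holds the keratin Krt7, which is no such factor. Of these members, 4 passed the size rule as higher and 0 as lower, and limma called 5 higher and 0 lower. Krt7 is counted among the higher ones by both rules. The median difference of the list was 0.45.

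Placental genes included the largest difference among the genes higher by the size rule. Sct, which encodes the hormone secretin and belongs to the placental list, stood at 10.75 and 10.73 against 14.70 and 14.50. Both arrays of reference 2 were far above those of reference 1, and the numbers stood 3.86 ± 0.10 apart (limma adjusted p = 0.00563), or 14.5-fold. Rhox6, a placental homeobox gene of the X chromosome, stood at 11.36 and 11.53 against 14.37 and 14.47, higher by 2.98 ± 0.10 (limma adjusted p = 0.00563). Its neighbour Rhox9 stood at 12.17 and 12.14 against 14.68 and 14.96, higher by 2.66 ± 0.12 (limma adjusted p = 0.00755). Rhox6 and Rhox9 are related copies, and whether their probes share signal was not tested. Fabp3, a fatty acid carrier, stood at 11.72 and 11.44 against 13.58 and 13.29, higher by 1.85 ± 0.16 (limma adjusted p = 0.0216).

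Plac1, an X-linked placental gene, was the member with unlike arrays in reference 1, at 9.87 and 8.49 against 11.17 and 11.95. Every pair was still at least 2-fold apart, while limma did not call the difference of 2.39 ± 0.53 (adjusted p = 0.0747). Of 34 measured placental and trophoblast markers, 30 had a difference above 0, as had 11568 of all 21078 genes. By the size rule 5 of the markers passed as higher and 0 as lower, and limma called 9 higher and 0 lower. Their median was 0.60, ranging from 0.56 to 0.64 over the 4 pairs of arrays. Among the members called by limma alone were H19, an imprinted noncoding RNA (1.01 ± 0.14, limma adjusted p = 0.04), Phlda2, an imprinted brake on placental growth (0.82 ± 0.10, 0.0337), and Plet1, a marker of early trophoblast (1.14 ± 0.13, 0.0327). Among markers of later trophoblast types on the list, Prl3d1 of giant cells stood 0.52 higher without passing (limma adjusted p = 0.058), as did Tpbpa of spongiotrophoblast at 0.68 (0.085), well above background on 2 of 4 arrays. Outside the list, Pcdh12, a protocadherin of glycogen trophoblast, was higher by 2.05 ± 0.08 (limma adjusted p = 0.00575). The prolactin family gene Prl2a1 was not well above background in reference 1 and met the filter on probes through reference 2 alone. That it passed both rules (limma adjusted p = 0.0283) is therefore not counted as support.

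Epithelial junction genes moved in part. Cldn7, a tight junction claudin, stood at 11.13 and 11.03 against 12.47 and 12.75, higher by 1.53 ± 0.13 (limma adjusted p = 0.0214). Cldn4, another claudin, stood at 8.03 and 7.98 against 9.96 and 9.04, where the arrays of reference 2 differed from each other and limma did not call the difference of 1.49 ± 0.31 (adjusted p = 0.0689). Prss8, a membrane serine protease of epithelia, stood at 9.04 and 8.82 against 11.05 and 10.69, higher by 1.94 ± 0.16 (limma adjusted p = 0.0214). These 3 were the members of the 44 measured that passed the size rule, all as higher, and limma called 8 higher and 0 lower, with a median of 0.28. The classical epithelial genes Cdh1 (E-cadherin, 0.10 ± 0.17) and Epcam (0.05 ± 0.18) did not pass (limma adjusted p = 0.704 and 0.87), and both are also expressed by embryonic stem cells.

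Few pluripotency genes differed between the references. Pou5f1 stood at 11.82 and 11.79 in reference 1 and at 13.04 and 11.97 in reference 2. The dox array of reference 2 alone was high, and the difference of 0.70 ± 0.36 did not pass (limma adjusted p = 0.263). Sox2, the partner of Oct4, stood at 12.06 and 12.04 against 11.85 and 12.45, with overlapping arrays (0.10 ± 0.21, limma adjusted p = 0.771). Nanog, another core factor, stood at 11.55 and 11.59 against 12.08 and 11.83, a difference of 0.39 ± 0.12 (limma adjusted p = 0.116). Zfp42, a marker of undifferentiated cells, stood at 15.39 and 15.48 against 15.15 and 15.36 (−0.18 ± 0.11, limma adjusted p = 0.332). All of these were well above background on the 4 arrays. Of 35 measured members, 1 was higher and 1 lower by either rule, and the median was 0.03. The higher one was Dppa3, a maternal factor of germ cells and naive stem cells, at 1.30 ± 0.08 (limma adjusted p = 0.0133), and the lower one Lefty1, a Nodal inhibitor, at −1.30 ± 0.13 (limma adjusted p = 0.0307).

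Inhba and several genes of matrix proteins and their receptors were lower in reference 2. Inhba, which encodes the activin A subunit, stood at 10.89 and 10.87 in reference 1 and at 7.09 and 6.89 in reference 2. The arrays of each number lay close together, and the difference was −3.89 ± 0.11 (limma adjusted p = 0.00563), or 14.8-fold lower. Col1a1, the alpha-1 chain of type I collagen, stood at 10.15 and 10.19 against 7.92 and 7.78, a difference of −2.32 ± 0.09 (limma adjusted p = 0.00575) with its brightest probe. Its other probes gave −0.93 and −0.02, so the probes of this gene disagreed. Col1a2, its partner chain, stood at 9.63 and 9.62 against 8.42 and 7.75 (−1.54 ± 0.23, limma adjusted p = 0.0449). Cd44, a receptor for hyaluronan, stood at 8.92 and 9.0 against 6.87 and 6.80 (−2.13 ± 0.09, limma adjusted p = 0.00575). Has2, a synthase of that polymer, stood at 9.13 and 9.19 against 7.30 and 7.0 (−2.01 ± 0.13, limma adjusted p = 0.0142). All 5 genes passed the size rule as lower, which by itself requires both arrays of reference 1 to be on top.

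Of 39 measured fibroblast markers of feeder cells, 0 were higher and 10 lower by size, limma called 0 higher and 16 lower, and the median was −0.63 (−0.73 to −0.54 over the 4 pairs). Besides the collagens, the lower members included Fbln2, a matrix glycoprotein (−1.38 ± 0.09, limma adjusted p = 0.0142), S100a4, a calcium-binding marker of fibroblasts (−1.35 ± 0.12, 0.0256) and Cav1, the coat protein of caveolae (−1.28 ± 0.10, 0.0188). Tnc, a matrix protein, is counted among the lower members by its brightest probe, which was not well above background in reference 2, whereas another probe, well above background on all 4 arrays, gave a difference of 0.52, so its probes disagreed. Other defining markers of fibroblasts stood low on every array: Lum at 6.94, 6.94, 7.11 and 7.39 and Dcn at 6.67, 6.61, 6.42 and 6.59 (dox and dox+TCP arrays of reference 1, then of reference 2). Postn (0.02 ± 0.09), Prrx1 (0.27 ± 0.09), Col3a1 (−0.15 ± 0.10) and Thy1 (−0.19 ± 0.08) did not pass either (limma adjusted p = 0.91, 0.136, 0.372 and 0.197). The summed linear level of the list was 63770 and 62810 in reference 1 and 43930 and 56900 in reference 2. The number of fibroblasts and their RNA per cell cannot be told apart in bulk RNA, and the part of such cells in these differences was not tested. Of 16 regulators of the mesenchymal transition, 0 were higher and 1 lower by size, Mmp14, a membrane metalloprotease (−1.20 ± 0.11, limma adjusted p = 0.0275), limma called 0 higher and 3 lower, and the median was −0.41.

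Further genes that were lower by at least 2-fold in every pair were the imprinted noncoding RNA Meg3 (12.72 and 12.78 against 11.01 and 10.20), the follistatin-like gene Fstl1 (12.66 and 12.72 against 10.99 and 10.50) and the TGF-beta-induced matrix gene Tgfbi (10.30 and 10.36 against 8.95 and 8.57). In each, both arrays of reference 1 were the high ones, which the size rule requires. Their differences were −2.14 ± 0.28, −1.94 ± 0.18 and −1.57 ± 0.15 (limma adjusted p = 0.0379, 0.0258 and 0.0275), although the tested probes of Meg3 ranged from −2.14 to −0.04. The remaining genes among the 15 lowest with a plain symbol were Sned1 (−1.77), Cavin2 (−1.58), Vwa3b (−1.57), Srrm3 (−1.54), Thbs1, a matrix glycoprotein (−1.54), Piwil4, a partner of small germline RNAs (−1.46), Skor1 (−1.45) and Prss23 (−1.44), at limma adjusted p of 0.0109 to 0.0367. Id1, a target of BMP signalling, stood at 14.70 and 14.61 against 13.56 and 13.49 (−1.13 ± 0.09, limma adjusted p = 0.0197).

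The remaining genes among the 15 highest were Dppa1 (6.90 and 6.93 against 9.99 and 9.68), a gene of early development, and Sbsn (10.36 and 10.27 against 13.25 and 13.07), which encodes suprabasin of stratified epithelium. Both were higher on both arrays of reference 2, by 2.92 ± 0.13 and 2.84 ± 0.10 (limma adjusted p = 0.00721 and 0.00563). Exoc3l4 (2.82), Ddn (2.70), Lonrf3 (2.57), Tgm2, a transglutaminase (2.54), and Shroom1 (2.38) completed them, at limma adjusted p of 0.00563 to 0.0109. Ndrg1, a gene induced by hypoxia and differentiation, was higher by 1.80 ± 0.08 (limma adjusted p = 0.00762) as the 1 member of 35 measured genes of glycolysis and hypoxia that passed the size rule.

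The 2-cell-like genes, which mark a rare state of stem cell cultures that resembles the early embryo, differed in both directions. Zscan4c stood at 11.27 and 11.30 against 9.997 and 9.80, a difference of −1.39 ± 0.10 (limma adjusted p = 0.0181), and Tcstv3 at 12.009 and 11.999 against 11.03 and 10.69 (−1.14 ± 0.14, limma adjusted p = 0.0359). Pramel6, a naive-state gene, stood at 7.82 and 7.84 against 9.28 and 9.29, higher by 1.45 ± 0.08 (limma adjusted p = 0.0109). Of 13 measured members, 1 was higher and 1 lower by size, limma called 2 higher and 6 lower, and the median was −0.53. Several of these genes have near-identical copies, so a probe may report more than 1 gene.

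Of the 28 measured genes of primitive endoderm, 1 was higher by size and 0 lower, and limma called 4 higher and 1 lower. The member higher by size was Gata6, a zinc finger factor of that lineage, at 7.80 and 7.81 against 8.90 and 9.54 (1.41 ± 0.23, limma adjusted p = 0.0486). The lineage's markers Gata4 (0.05 ± 0.09) and Sox17 (0.35 ± 0.10) did not pass (limma adjusted p = 0.705 and 0.104), and the list's median was 0.20. Among 9 measured leukocyte markers, Csf1r, a receptor that trophoblast also expresses, was higher (1.91 ± 0.13, limma adjusted p = 0.0154) and Laptm5, a lysosomal gene, lower (−1.11 ± 0.08, 0.0181), whereas Cd68 (−0.18) and Lyz2 (0.10) did not pass (limma adjusted p = 0.306 and 0.453). No member of the cell cycle (37 measured), Hox (21) or housekeeping (28) lists passed the size rule. By limma 0, 0 and 1 of them were called, the last as lower, and the medians were −0.05, 0.08 and −0.05.

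**Figure D3:**
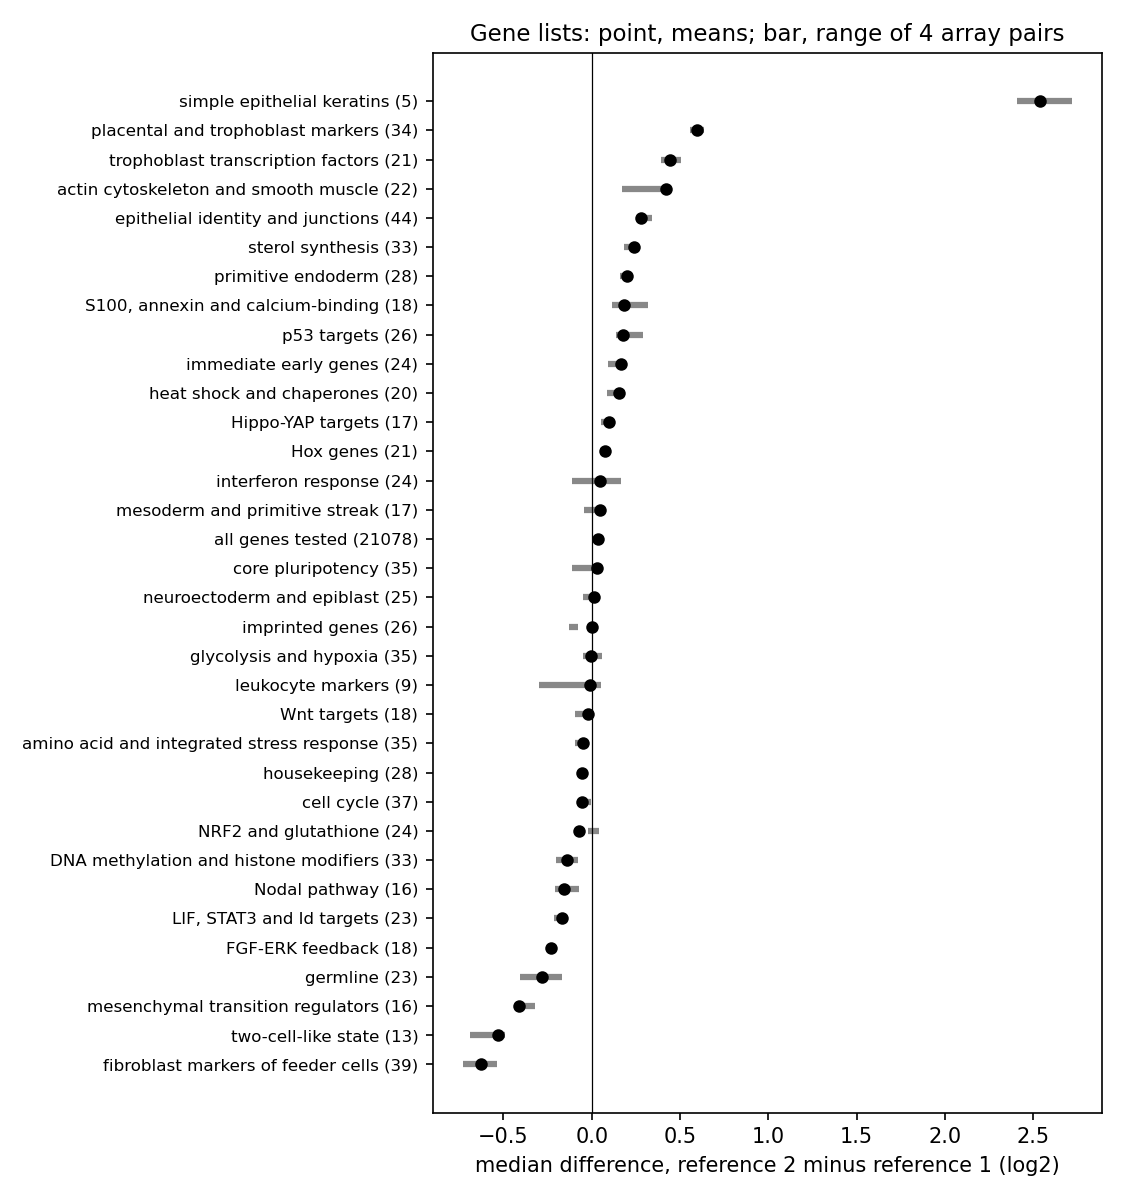
Median difference between the references (log2, horizontal axis) of 33 gene lists and of all genes tested, with the number of genes measured in parentheses. The point is the median of the differences between means and the bar the range of the medians over the 4 pairs of arrays; the simple epithelial keratins lie at 2.54, the placental markers at 0.60 and the fibroblast markers at −0.63, while all genes lie at 0.03.

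The same arrays show how far the treated cells of the 2 numbers differed in the other dye. Both dyes were read from the same spots, so their differences are not independent. The median Cy5 difference over all genes tested was 0.10, and the share of all genes above 0 in Cy5 was not counted. The counts of signs below thus have no share to stand beside. They are not read as agreement between the treated and the reference cells. For the 117 genes higher in reference 2, the median difference was 1.53 in Cy3 and 0.77 in Cy5, 103 had a Cy5 difference above 0, and 26 passed the size rule as higher in Cy5. For the 56 lower genes the medians were −1.39 and −0.94, 54 had a Cy5 difference below 0, and 10 passed the size rule as lower in Cy5. Over all genes, 55 were higher and 258 lower by size in Cy5. In that dye the 2 arrays of a number differ in TCP, so the size rule there also compares dox arrays with dox+TCP arrays. Inhba was also lower in the treated cells numbered 2, at 9.63 and 9.95 on the arrays numbered 1 and 6.99 and 6.99 on those numbered 2. Sct was also higher there, at 15.18 and 14.96 against 16.23 and 16.43.

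Several genes that were higher in reference 2 stood close together in the treated cells. Saturation was not read in Cy5, so a ceiling on the brightest spots there was not tested. In Cy5, Krt8 stood at 17.87 and 16.95 on the dox and dox+TCP arrays numbered 1 and at 17.32 and 16.98 on those numbered 2, and Krt18 at 18.74 and 18.19 against 18.30 and 18.09. The values of the treated cells overlapped between the numbers for both keratins. The Cy5 differences were −0.26 for Krt8, −0.28 for Krt18 and for Rhox6, and −1.24 for Cdx2, which stood at 13.40 and 12.46 against 12.32 and 11.06. Id1 and Tgfbi, lower in reference 2, had Cy5 differences of 0.64 and 0.25. When the difference in Cy3 was tested against that in Cy5 per array, limma called 0 of 21054 genes (2528 at an unadjusted p under 0.05). A difference between the dyes was thus not shown for any single gene. In Cy5 the 2 arrays of a number also differ in TCP, and the fit had no term for it. Any effect of TCP entered the spread, so for genes that respond to TCP this test cannot decide whether the dyes differed. For other genes, with only 2 arrays of each number, the lack of calls does not show that the dyes were alike.

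**Figure D4:**
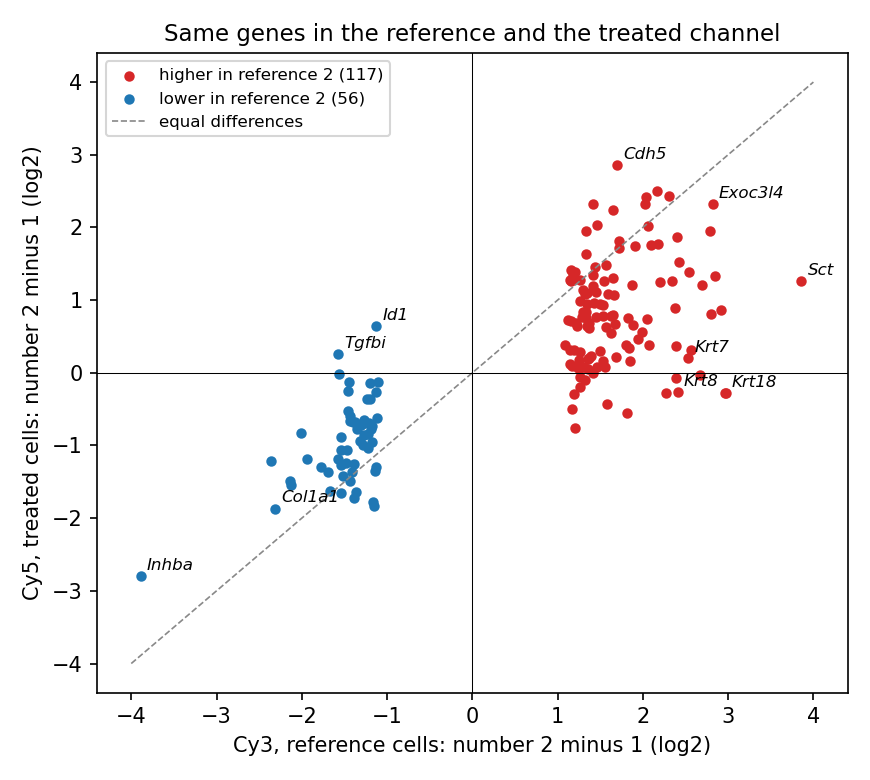
Difference between the arrays numbered 2 and 1 in the reference cells (Cy3, horizontal axis, log2) and in the treated cells (Cy5, vertical axis, log2) for the 173 genes that passed the size rule, red where higher in reference 2 (117) and blue where lower (56). Most blue points lie below 0 on the vertical axis (54 of 56), and the share of all genes below 0 was not counted. Krt8 and Krt18 lie just below 0 on that axis at −0.26 and −0.28 with Cy3 differences of 2.41 and 2.96, and the dashed line marks equal differences.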

How the data were processed

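Mean spot signals and median local backgrounds are intensities on a linear scale, scanned with Agilent Feature Extraction 10.1.1.1 and named on mm7, per the file headers. A matrix of log10 ratios of Cy5 over Cy3 that the authors deposited was not used here. The Cy3 intensities were corrected with limma 3.58.1 (R 4.3.3) by normexp with an offset of 50, after local backgrounds over 2 times the array median were set to that median, and quantile normalized over the 4 arrays. The 1639 control spots entered the background step only, and outlier spots were set to missing. Spots of a probe were averaged; a gene is its brightest probe among those above background, by the scanner's test, on each array of a number, 21078 genes, of which 19280 were so on all 4 arrays. The offset shrinks differences of dim genes. Cy5 was treated alike. Of the 41174 probes, 22951 were named by accession, 6659 by symbol and 3109 by synonym through a RefSeq table of GRCm38.p6, and the other 8455 kept their old name.

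limma with eBayes and Benjamini-Hochberg adjustment at 0.05 was fitted over arrays, with 2 residual and 2.6 prior degrees of freedom and a median SE of 0.107, so the number of arrays limits the precision. The code was checked on simulated data with 200 changed genes and each gene's own spread between arrays. The changed genes were drawn from the brighter genes only, so the shares recovered do not cover dim genes. At a log2 change of 1, limma recovered 45.5%, and 21 of its 112 calls were false. The size rule recovered 19%, with 19 of 57 calls false. At a log2 change of 2, limma recovered 77.5% with 29 of 184 calls false, and the size rule 99% with 13 of 211 false. The limma calls there held a larger false share than the threshold of 0.05. Named genes are Krt8, Krt18, Cdx2, Pou5f1, Sox2 and Nanog, the 15 highest and 15 lowest by the smallest difference among genes that passed the size rule, were well above background on all 4 arrays and had a plain symbol, and up to 4 members of each list; others were chosen after their values were seen. Members and lists were chosen with earlier results of these data known. Alternatives covered background, normalization, filter, probes, array weights and leaving out arrays.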

Additional observations from a re-analysis of the deposited data

How the results depend on the processing

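The labels' numbers give no pairs between the references, and the Cy5 arm, which each reference holds as 1 dox and 1 dox+TCP array, was run as a block. Of 2554 values of named genes over 18 alternatives, 2388 stayed on their side of the size rule, 42 no longer passed it and 123 newly passed it. In 9 values the sign changed, for 4 of 142 genes, Sox2 and Dppa5a among them, and 1 of these had passed the rule: Tnc stood at 0.524 when genes had to be well above background on all 4 arrays. Krt8 ranged from 2.18 to 2.87, Krt18 from 2.73 to 3.41, Sct from 3.56 to 4.14 and Inhba from −4.79 to −2.05. The keratin median ranged from 2.25 to 2.92, the placental from 0.266 to 0.909 and the fibroblast from −0.765 to −0.312. Of 594 list medians, 234 moved by more than their spread over array pairs and 61 changed sign, in 18 of 33 lists, all with a reported median of at most 0.24 in size. Under median scaling these included sterol synthesis (−0.0899), S100 and annexin genes (−0.0753), p53 targets (−0.0141), immediate early genes (−0.184) and heat shock genes (−0.0602). Counts are given as higher and lower. By size they were 40 and 10 with local backgrounds as read, 325 and 185 with processed signals, 71 and 165 under median scaling, 260 and 143 from the dox arrays alone, 325 and 303 from the dox+TCP arrays alone, 40 and 8 at 3-fold and 411 and 402 at 1.5-fold. The lower count was 98 with a normexp offset of 16 and 128 with plain subtraction. Leaving out each array gave 123 to 275 and 71 to 286. By limma they were 245 and 249 with plain subtraction, 108 and 43 with processed signals and 996 and 1110 with the Cy5 arm as a block. The higher count was 823 under 75th percentile scaling and 118 under median scaling, and the lower count was 845 with cyclic loess. With the arrays numbered 1 averaged as 1 sample they were 102 and 42. With scan day as a block, added after seeing the data, they were 6016 and 4995, which takes the spread from the arrays of reference 1 alone, as does leaving out either array of reference 2. Leaving out each array gave 97 to 7535 and 42 to 6616. The test of Cy3 against Cy5 called 4 genes under 75th percentile scaling. For other moves the cause was not tested. Slide as a random block, also added later, gave no estimate of the correlation for any gene (0 of 21078).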

Other observations

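Gene families outside the lists above were described by symbol, after values had been seen. Of 33 measured keratins, 6 passed the size rule as higher and 0 as lower, and limma called 6 higher and 1 lower. Besides the 4 keratins of simple epithelia, these were Krt13 (8.28 and 8.12 against 10.30 and 10.25) and Krt14 (8.16 and 8.22 against 9.83 and 9.84), keratins of stratified epithelium, both higher on each array of reference 2. Of 7 measured Rhox genes, all had a difference above 0 (7 of 7), as had 11568 of 21078 genes tested, and 2 passed the size rule. The Rhox differences ran from 0.09 for Rhox5 to 2.98 for Rhox6. Of 35 measured collagens, 0 were higher and 5 lower by size, while limma called 3 higher and 8 lower. The higher ones were chains of basement membrane collagen IV, among them Col4a1 (1.05 ± 0.12, limma adjusted p = 0.0328) and Col4a2 (0.92 ± 0.09, 0.0301). The serpins Serpinb9g and Serpinb9d, expressed in placenta, were higher by 2.42 ± 0.23 and 2.34 ± 0.22 (limma adjusted p = 0.0275 and 0.0268), and as close copies their probes may share signal. On the X chromosome 12 of 735 tested genes were higher by size (1.63%), against 0.555% of all genes, among them Rhox6, Rhox9, Esx1, Plac1, Lonrf3 and Amot. The median difference over the X-linked genes was 0.02. This share was not particular to the X: it was 1.32% on chromosome 15 (11 of 835) and 1.04% on chromosome 13 (8 of 772).

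The highest mean differences of all rested on 1 array. AK082639 stood at 6.32, 6.31 and 6.25 on the other arrays and at 16.59 on the dox+TCP array of reference 2, and Vars2, a mitochondrial tRNA synthetase gene, at 9.23, 9.21 and 9.25 against 17.52. Rian, a noncoding RNA of the locus of Meg3, stood at 8.42 and 8.46 in reference 1 and at 9.43 and 6.58 in reference 2. Of 80 other tested probes of genes that passed the size rule, 68 had the sign of the reported probe, 16 also passed the rule and 0 passed it in the opposite direction. The differences of these other probes were smaller. Their median was 0.689 for higher and −0.369 for lower genes, against 1.53 and −1.39 for the reported probes of all genes that passed.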
